A study of Homo sapiens with 7 samples.

Results

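Chromosome contacts were compared between DLD-1 cells given auxin for 10 d and untreated cells of the same DNMT1-AID genotype. DLD-1 is an established human colorectal adenocarcinoma line. The comparison rests on 2 of the 7 libraries of the series, 1 per group, taken by their titles, and it was described over 23 chromosomes (1 to 22 and X), 41 of 46 chromosome arms and every pair of these chromosomes. Both groups carry the degron on DNMT1. The treated cells received indole-3-acetic acid (auxin) at 500 nM for 10 d and the untreated cells none. A library given auxin for 4 d and 1 that then had 4 d of washout, both DNMT1-AID, stand beside it where a result turns on them, and all 3 share the untreated library. Libraries of DNMT3B knockout cells, which carry the same degron, untreated and after 10 d of auxin, share no library with the comparison. The untreated knockout library was grouped by its title, since its genotype label names DNMT1-AID alone. Chromosome 8 held 6.64% and 6.79% of the trans contact ends in the untreated and the 10 d knockout libraries, against 4.76% and 4.81% in the DNMT1-AID ones.

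DNMT1 copies DNA methylation onto the newly made strand after replication, so that methylation is diluted over cell divisions when the protein is lost. The degron is a tag through which auxin leads to degradation of the tagged protein. Methylated DNA is part of much of the compact, gene-poor chromatin of the nucleus, and each chromosome occupies a territory of its own, within which contact falls with the distance along the DNA. Hi-C joins DNA pieces that lie near each other and counts the joined pairs, so contacts within an arm, between the arms of a chromosome and between chromosomes (trans contacts) can be counted apart.

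The untreated library held 114710963 contacts and the library at 10 d 158423127, with those within a chromosome counted from a separation of 100 kb on. The other 5 libraries held 27345260 to 222645438. With 1 library per group, no difference could be tested against replicates, and nothing in the labels tells separate cultures apart. A fixed size was therefore used in place of a test: a chromosome, arm, pair or separation bin is called when its log2 ratio of 10 d over untreated is at least 0.1 in size. Since all libraries carry the degron, an effect of auxin itself and the loss of DNMT1 cannot be told apart, and the tables do not show the DNMT1 protein.

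More contacts linked different chromosomes after 10 d. Trans contacts made up 21.4% of all contacts in untreated cells (95% exact binomial interval 21.363% to 21.378%, counting error only) and 26.2% at 10 d (26.222% to 26.236%). The gain came with a lower share within arms, 70.0% against 74.9%, while the share between the arms of a chromosome was 3.81% against 3.71%. The mean balanced contact between chromosomes, which is the authors' matrix-balanced signal per pair of 50 kb bins, was 5.16 millionths at 10 d and 4.25 untreated, a log2 ratio of 0.28. It was -0.052 at 4 d, 0.11 after washout and 0.21 in the knockout between its own 10 d and untreated libraries. The untreated knockout library held 25.2% trans contacts and 4.97 millionths. Without auxin it thus lay above the untreated DNMT1-AID library and nearer to the 10 d one.

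The trans share of a chromosome, here the share of its contact ends that lie on another chromosome, rose past the call size on 23 of 23 chromosomes (100% called), so the chromosomes differ in degree and not in direction. X, 5 and 4 had the largest log2 ratios. The share on X was 19.1% untreated and 24.2% at 10 d (log2 ratio 0.35), on chromosome 5 it was 18.6% and 23.7% (0.34), and on chromosome 4, which is gene-poor, 17.2% and 21.7% (0.34). Chromosomes 22, 17 and 15 had the smallest. On chromosome 22, which is small and gene-rich and had the highest untreated share, it was 36.3% and 41.2% (0.18), on the gene-rich chromosome 17 it was 32.5% and 37.7% (0.22), and on chromosome 15 it was 28.4% and 33.8% (0.25). The satellite-rich chromosomes 1, 9 and 16 lay between these ends, with log2 ratios of 0.29, 0.26 and 0.25, and so did the gene-poor chromosome 18 (0.30) and the gene-dense chromosome 19 (0.30). The counting error of these log2 ratios was at most 0.0021 (SE). After washout each of the chromosomes named here lay between its untreated and its 10 d share, and at 4 d each lay below its untreated share, as on chromosome 22 (33.6% at 4 d and 38.5% after washout) and X (18.6% and 20.7%).

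**Figure D1:**
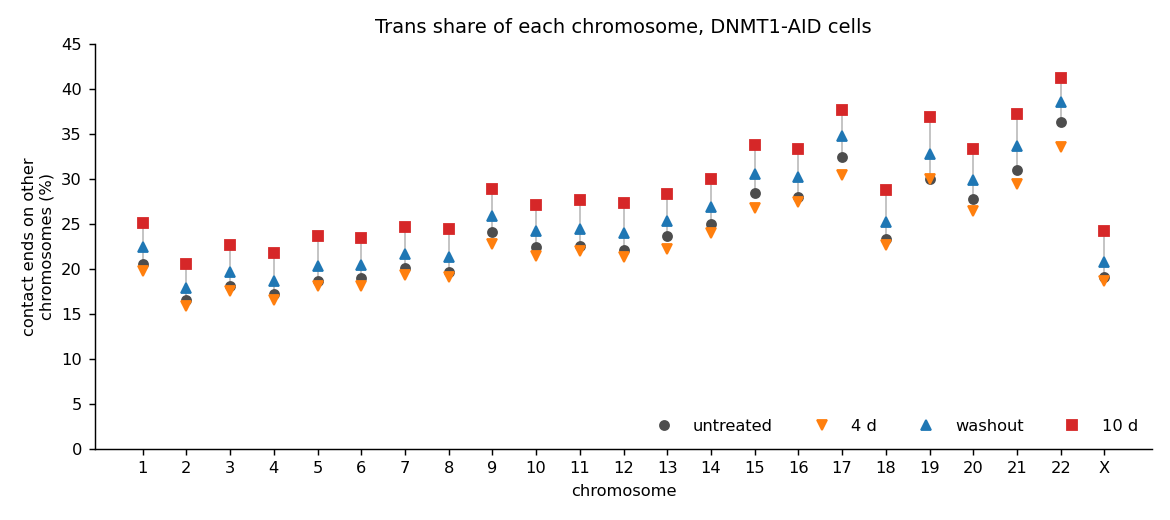
Trans share of the contact ends of each chromosome (percent, vertical axis) in the 4 DNMT1-AID libraries, 1 point per library and chromosome, with a grey line from untreated to 10 d. The 10 d library is highest on every chromosome drawn, from 20.5% on chromosome 2 to 41.2% on chromosome 22.

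The log2 ratio, though not the gain in percentage points, was smaller on chromosomes with a larger share of A1 and A2 chromatin. Over the 21 chromosomes with cluster names, the log2 ratio had a Pearson r of -0.84 (Spearman -0.81) with the percent of bins in A1 and A2, 2 of the authors' clusters of the untreated library, whose names usually stand for active chromatin. That share ran from 18.5% on chromosome 4 to 82.0% on chromosome 22. On chromosome 1 it covers only the part with cluster names. In percentage points the direction was the opposite, with an r of 0.43: chromosome 22 gained 4.87 points, 17 gained 5.24 and 19 gained 6.92, against 4.53 on chromosome 4. With balanced trans contact r was -0.66, and -0.38 in the knockout. For the log2 ratio of the share, r with protein-coding genes per Mb was -0.22 over 23 chromosomes, and -0.52 without chromosome 19, and with length it was 0.63. In the knockout the correlation with the A1 and A2 share was -0.71 and that with length 0.16. All points come from the same 2 libraries and each trans contact enters 2 chromosomes, so these values are descriptions.

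Contact within arms at 20 to 50 Mb, divided by the mean trans contact of the same chromosome, was lower at 10 d on 23 of 23 chromosomes. On X the ratio was 48.9 untreated and 34.2 at 10 d (log2 ratio -0.51), on chromosome 21 12.2 and 8.76 (-0.48), on chromosome 22 23.1 and 17.2 (-0.43), and on chromosome 18 30.3 and 22.8 (-0.41). Chromosomes 17 (11.1 and 9.46, -0.23), 15 (12.5 and 10.6, -0.24) and 12 (16.8 and 13.7, -0.29) changed least. The ratio was also below untreated on 23 of 23 chromosomes at 4 d (log2 ratios -0.40 to -0.15) and after washout (-0.23 to -0.053). At 4 d it was lower than at 10 d on some, as on chromosome 17 (-0.30) and chromosome 19 (-0.40 at 4 d and -0.37 at 10 d). In the knockout the log2 ratios ran from -0.19 on chromosome 20 to 0.088 on chromosome 3.

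Each chromosome pair had more balanced contact at 10 d than untreated, with log2 ratios from 0.030 to 0.45 (median 0.28), and 248 passed the call size (98.0%). The counting error per pair was 0.0029 to 0.015 (SE). The added contact ran from 0.257 to 2.11 millionths per bin pair, with a median of 0.947 and quartiles at 0.826 and 1.04. Its coefficient of variation over pairs was 24.5%, against 42.2% for untreated contact, but its extremes lay 8.21-fold apart, against 7.63-fold. The log2 ratio was smaller where untreated contact was high, with an r of -0.81 over pairs, and -0.77 with the contact of the untreated knockout library, which is independent of the comparison, on the other axis. Pairs share chromosomes and are not independent. The spread between pairs narrowed: the SD of log2 contact over pairs was 0.51 untreated, 0.48 at 4 d, 0.46 at 10 d and 0.51 after washout. In the knockout it was 0.48 both untreated and at 10 d, and its log2 ratios had an r of 0.012 with its own untreated contact, although every pair was higher there too. Whether read pairs joined at random between unrelated DNA pieces took part in the gain was not tested.

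Relative to the median pair, 25 pairs were lower (9.88% called) and 13 higher (5.14% called). With raw counts divided by the product of both chromosomes' trans totals, 3 were lower and 0 higher. That division largely takes out changes that a chromosome shares over all its pairs, so it measures a different quantity from the balanced values. Without chromosome 19 the number higher with balanced values was 6. Of the 25, 10 held chromosome 22 and 15 did not, and 19 pairs were called lower when chromosome 22 was left out. The 5 lowest all held it. Chromosomes 21 and 22 had 12.4 millionths of contact untreated and 12.6 at 10 d, from 18154 and 26800 counts, the smallest change of all pairs (log2 ratio 0.030). Chromosomes 17 and 22 had 15.5 and 15.8 (0.033), 16 and 22 had 11.3 and 11.6 (0.047), 20 and 22 had 14.9 and 15.7 (0.074), and 15 and 22 had 10.1 and 10.8 (0.092). All 5 had well over the median pair's untreated contact of 4.52 millionths. At 4 d their log2 ratios were -0.22 to -0.17, so they lay below the untreated level there and just above it at 10 d. In the knockout the same pairs had log2 ratios of 0.28, 0.017, 0.14, 0.25 and 0.17, in that order.

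The 5 highest pairs all held chromosome 19, which carries the highest gene density and large clusters of zinc finger repressor genes. Chromosomes 19 and X had 2.89 millionths untreated and 3.93 at 10 d, from 21158 and 40651 counts (log2 ratio 0.45), the largest change of all. Chromosomes 4 and 19 had 3.44 and 4.62 (0.42), 3 and 19 had 3.70 and 4.90 (0.41), 6 and 19 had 3.81 and 5.04 (0.40), and 5 and 19 had 4.34 and 5.72 (0.40). Each of these partners is large, and for chromosomes 3, 4, 5 and 6 contact with 19 was already above untreated at 4 d, with log2 ratios from 0.042 to 0.065. In the knockout the 5 pairs had 0.13, 0.18, 0.18, 0.30 and 0.26.

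In relative terms, small chromosomes among themselves changed less than the median pair. Among the 21 pairs within chromosomes 16 to 22, the log2 change relative to the median pair had a median of -0.13, 20 were lower and 15 of them were called, against 9.88% of all pairs. With raw counts over trans totals, 21 of 21 were lower, with a median of -0.072. Without the pairs of chromosome 22 the median was -0.13 and 9 of 15 were called, and without those of chromosome 19 it was -0.15 and 14 of 15. The small gene-rich chromosomes 16, 17, 19, 20 and 22 gave the same median, -0.13, with 10 of 10 pairs lower and 7 called (-0.056 with raw counts). Chromosome 11, with 9.63 protein-coding genes per Mb, is denser than 16, 20 and 22 but is larger and not on that list. In added contact the median of the pairs within 16 to 22 lay close to that of all pairs. It was 0.927 millionths, on a median untreated contact of 9.49, against 0.947 on 4.52 for all pairs. Their added contact was more widely spread, with a coefficient of variation of 52.0%, against 24.5% over all pairs. Its extremes lay 8.21-fold apart, as over all pairs. The acrocentric list (13, 14, 15, 21 and 22), the carriers of the ribosomal RNA genes, had a median of -0.097, with 10 of 10 lower and 5 called. With raw counts this last list shrank to -0.022, with 6 of 10 lower.

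Pairs of a large with a small chromosome lay slightly above the median pair. The 49 pairs of a large (1 to 7) with a small (16 to 22) chromosome had a median of 0.023 relative to the median pair with 34 higher, and with raw counts 49 of 49 were higher, with a median of 0.031. Large chromosomes among themselves had 0.023 with balanced values, 16 of 21 pairs higher. With raw counts they had -0.010, 21 of 21 lower, so their direction turned once the chromosomes' own trans totals were divided out. The list of chromosomes 4, 5, 13, 18 and X had 0.065, 9 of 10 pairs higher, and -0.0021 with raw counts, which also turns. It was drawn up as a gene-poor list, but X, with 5.43 protein-coding genes per Mb, is denser than chromosomes 2, 3, 8 and 21. Chromosome 19 showed both sides: its 7 pairs with large chromosomes had a median of 0.12, and its 6 pairs with small ones -0.020. Chromosome 22 had -0.22 for its 6 pairs with small chromosomes and -0.017 for its 7 pairs with large ones, so both medians lay below the median pair. With raw counts its pairs with large chromosomes turned to 0.046, 7 of 7 higher, and those with small ones had -0.092.

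In the knockout the medians for pairs within 16 to 22 and within the gene-rich list were 0.050 and 0.044, opposite in sign, and for large with small -0.00015. Over all pairs, the changes in the 2 genotypes had an r of 0.22, and of -0.096 with raw counts. The difference between the genotypes was not tested, as each group held 1 library.

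**Figure D2:**
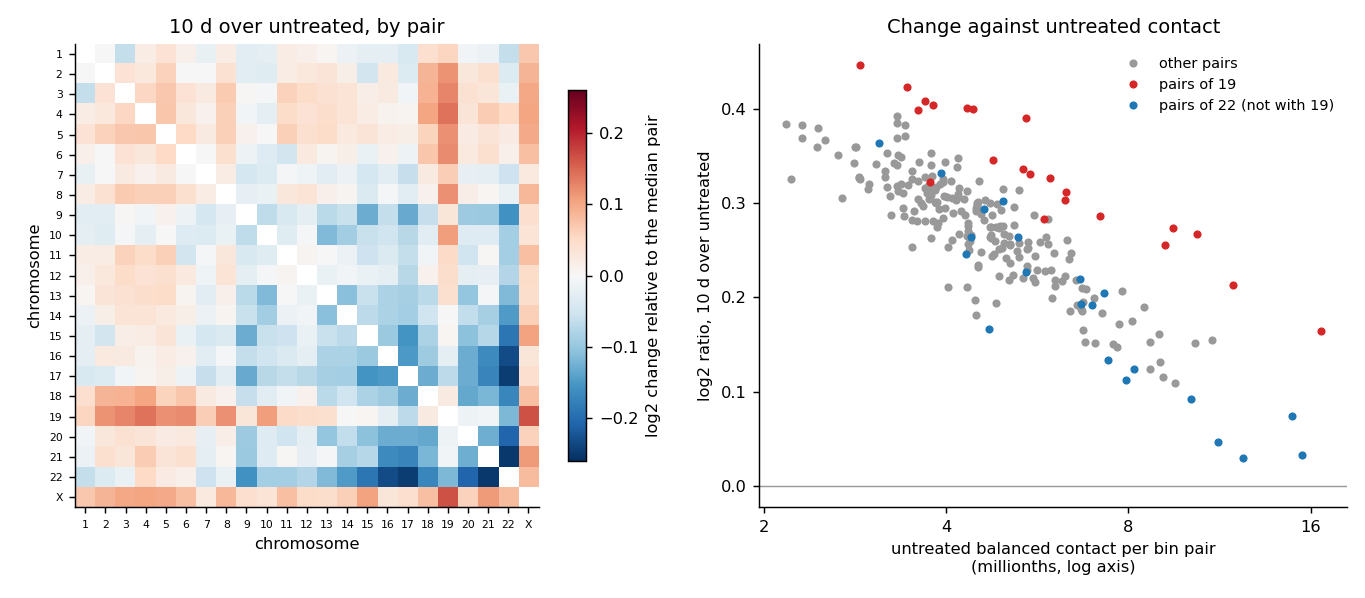
Left, log2 change of balanced contact for each chromosome pair, 10 d over untreated, relative to the median pair (colour; red higher, blue lower). Right, log2 ratio of each pair against its untreated contact in millionths (log axis), with the pairs of chromosomes 19 and 22 coloured; ratios run from 0.030 to 0.45 and fall with untreated contact.

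A term per chromosome described 77.0% of the variance of the pair changes (67.4% in the knockout). The terms are scaled so that the fitted change of a pair is the mean of the terms of both its chromosomes. They were highest for X (0.45), 19 (0.40) and 5 (0.38) and lowest for 22 (0.091), 17 (0.13) and 16 (0.18). Beyond these terms, chromosomes 21 and 22 remained low (-0.12). Next came chromosomes 1 and 3 (-0.11), which are both large. Their 394218 untreated counts were the most of any pair. Chromosomes 4 and 22 remained high (0.096), followed by 22 and X (0.094).

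Within arms, the contacts that grew lay far apart along the DNA. Over all 41 arms, balanced contact had log2 ratios of -0.11 at 0.1 to 0.126 Mb, -0.14 at 1 to 1.26 Mb, -0.086 at 10 to 12.6 Mb and -0.0061 at 40 to 50 Mb. They were 0.12 at 50 to 63 Mb, 0.30 at 63 to 79 Mb and 0.47 at 79 to 100 Mb. Of 31 separation bins, 5 were called higher (16.1%), all from 50 Mb on, and 11 lower (35.5%). Balancing gives each bin the same total, so more trans contact leaves less within arms. Taken as a share of the raw contacts within arms, the log2 ratios were -0.048 at 1 to 1.26 Mb, 0.042 at 5 to 6.3 Mb, 0.11 at 40 to 50 Mb and 0.59 at 79 to 100 Mb. At 10 to 12.6 Mb this scaling turned the direction, to 0.011.

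The rise held in nearly all arms long enough to show it. At 50 Mb or more, 22 of 23 arms had a higher share of their raw contacts and Xq a lower one, 1.57% against 1.69% (-0.10). At 79 to 100 Mb, 16 of 16 arms had more balanced contact (median 0.45), from 104491 untreated and 202883 counts at 10 d. The mean there was 12.6 millionths per bin pair untreated and 17.4 at 10 d, an added 4.84, against an added 0.916 for the mean of all trans contacts. So relative to the trans mean, contact at 79 to 100 Mb was 2.96-fold untreated and 3.37-fold at 10 d, whereas contact at 20 to 25 Mb was 32.1-fold and 24.8-fold. At 4 d the log2 ratio at 79 to 100 Mb was -0.16, after washout 0.19 and in the knockout 0.91. Between 50 and 100 Mb the exponent of decay, the slope of log10 contact on log10 separation, was -2.28 untreated, -1.78 at 10 d, -2.08 at 4 d and -2.15 after washout. It was -1.77 in the untreated knockout and -1.27 at 10 d, so decay was already flatter in the knockout without auxin.

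**Figure D3:**
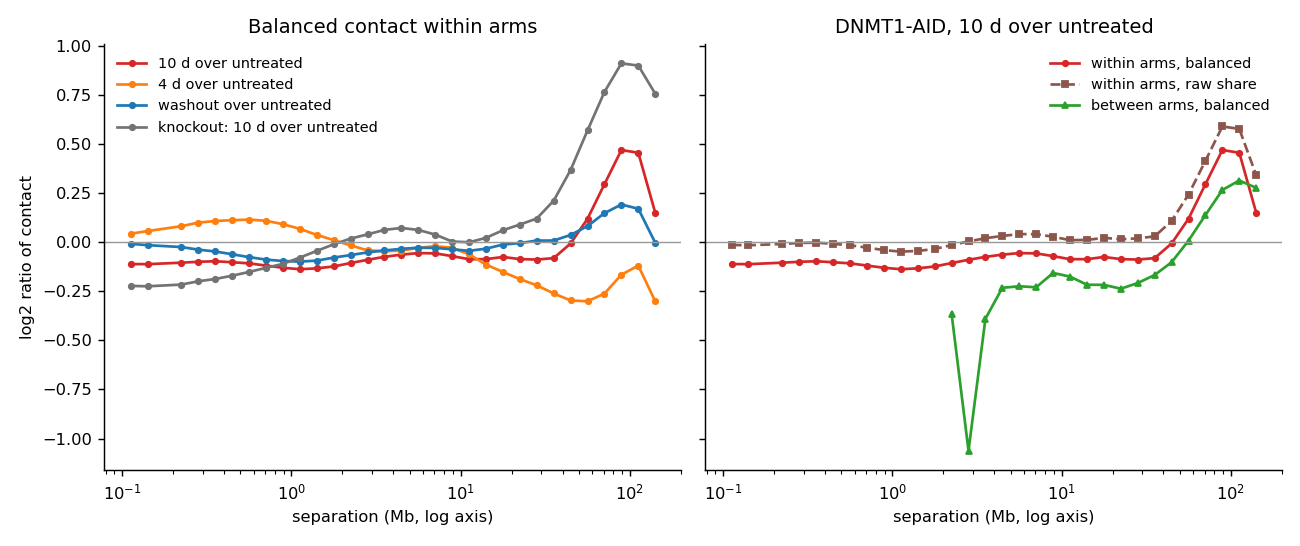
Log2 ratio of contact against separation (Mb, log axis). Left, balanced contact within arms for 10 d, 4 d and washout over untreated and for the knockout. Right, the 10 d ratio within arms with balanced values and as a share of raw counts, and between arms. The 10 d line lies at -0.14 at 1 to 1.26 Mb and reaches 0.47 at 79 to 100 Mb.

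In raw contacts within arms, those at 60 Mb or more made up 0.637% untreated and 0.864% at 10 d (log2 ratio 0.44), those from 10 to 50 Mb 15.02% and 15.29%, those from 1 to 10 Mb 24.7% and 24.6% and those under 1 Mb 59.1% and 58.5%. The shift was thus small except at the far end. At 10 Mb or more, 1 of 41 arms was called higher (2.44%), 12p, and 1 lower (2.44%), 19p. At 60 Mb or more the share rose past the call size in 18 of 19 arms (94.7% called). The largest ratios were on 15q, from 0.198% to 0.343% (0.79), 1q, from 0.848% to 1.25% (0.56), and 2p, from 0.277% to 0.406% (0.55). It was lowest on Xq, where the share was 0.728% and 0.730% (0.0035), and next on 13q, with 0.552% and 0.651% (0.24). Xq also had less of its contact at 30 to 60 Mb, 5.93% against 6.76% (-0.19), a class in which 29 of 34 arms were higher. On 12p the share at 30 Mb or more was 0.0810% and 0.125% (0.63), from 797 and 1563 counts.

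At shorter range the arms moved by less. At 1 to 3 Mb the share was lower in 36 of 41 arms (median log2 ratio -0.031), and at 3 to 10 Mb it was higher in 34 of 41 (median 0.028), with 18p highest (0.12). In the knockout both classes were higher in 41 of 41 arms, with medians of 0.075 and 0.12.

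Both arms of chromosome 19 stood apart. On 19p the share of contacts under 1 Mb was 72.5% untreated and 74.5% at 10 d, at 1 to 3 Mb 13.8% and 12.7% (log2 ratio -0.13), and at 10 Mb or more 3.75% and 3.02% (-0.31), the lowest of the 41 arms in the last 2 classes. From 20 Mb on the direction turned on 19p (0.47), from 82 and 158 counts, and on 19q (0.084), from 11961 and 16757. On 19q it was 67.1% and 69.1% under 1 Mb and 12.4% and 11.3% at 3 to 10 Mb (-0.12). The decay between 0.5 and 5 Mb flattened in 36 of 41 arms and steepened in 5: 19q (exponent -1.26 untreated and -1.30 at 10 d), 16p (-1.28 and -1.32), 22q (-1.44 and -1.47), 17p (-1.48 and -1.51) and 19p (-1.36 and -1.38). All 5 lie on the small chromosomes of the gene-rich list, and these 5 were named after their values were seen. The other arms of that list flattened: 16q by 0.0021, 17q by 0.0079, 20p by 0.016 and 20q by 0.019. Between 1 and 10 Mb 7 arms steepened, among them 5p and 21q, which are not on that list, and 19p flattened (by 0.040), so which arms steepen depends on the range. With all arms pooled, the exponent between neighbouring separation bins moved both ways within 0.5 to 5 Mb. Its difference was -0.040 (steeper) at 0.50 to 0.79 Mb and 0.051 (flatter) at 1.58 to 2.51 Mb. Over 41 arms the difference from 0.5 to 5 Mb had an r of -0.68 with genes per Mb, and of -0.55 without 19p and 19q. In the knockout decay flattened in 41 of 41 arms, these 5 included.

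**Figure D4:**
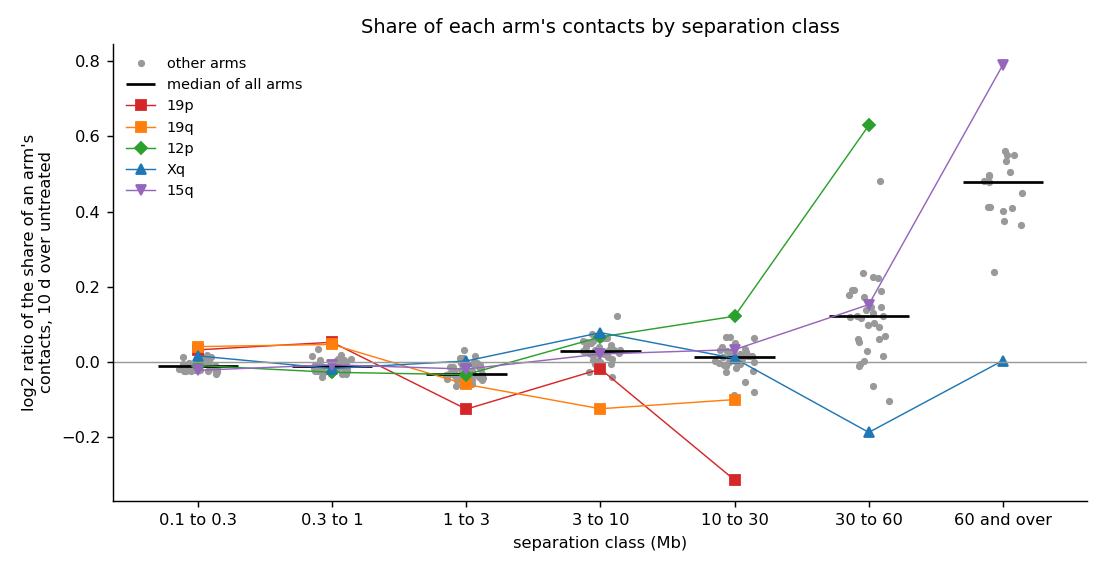
Log2 ratio, 10 d over untreated, of the share of each arm's raw contacts in 7 separation classes, 1 point per arm, with medians as bars and 5 arms drawn as lines. Medians lie near 0 up to 30 Mb and at 0.48 for 60 Mb and over, where 15q reaches 0.79 and Xq 0.0035, and 19p reaches -0.31 at 10 to 30 Mb.

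Contact between the arms of a chromosome was weaker at short and middle distance. At 20 to 50 Mb balanced contact between arms was lower on 18 of 18 chromosomes (median log2 ratio -0.15), and so was contact within arms (median -0.069). At 50 to 100 Mb contact between arms was higher on 16 of 18 (median 0.14) and at 100 Mb or more on 13 of 13 (median 0.29), as within arms. The ratio of contact between arms to contact within arms at 20 to 50 Mb was lower on 15 of 18 chromosomes, 7 of them past the call size (38.9%). It was 0.829 untreated and 0.643 at 10 d on chromosome 19 (log2 ratio -0.37), 0.887 and 0.700 on chromosome 1 (-0.34) and 1.10 and 0.956 on chromosome 17 (-0.21). On chromosome 16, which like 1 and 9 holds a large block of satellite DNA next to the centromere, it was 0.891 and 0.773 (-0.20), and on chromosome 9 it was 0.784 and 0.736 (-0.091). In the knockout chromosomes 16 (-0.51), 1 (-0.48) and 9 (-0.47) had the lowest values of all 18. The ratio was higher on X (0.461 and 0.509, 0.14), 11 (0.517 and 0.550, 0.090) and 20 (0.563 and 0.590, 0.067). These ratios average over unlike separations within and between arms. At matched separation 15 of 18 chromosomes were also lower, with 11 past the call size. The matched log2 ratios were -0.61 on chromosome 19, -0.43 on 16, -0.40 on 1 and -0.14 on 9. On chromosomes 1, 16 and 9 the matched untreated ratios were 1.47, 1.68 and 1.10, so contact between arms exceeded that within arms. It also did so on chromosomes 17 (1.19), 12 (1.15), 5 (1.13) and 3 (1.04), while on the rest of the 18 it was the lower.

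Chromosome 19 stood apart in the contacts across its centromere. At 8 to 10 Mb, contact between 19p and 19q was 109 millionths untreated and 225 at 10 d, from 1310 and 3737 counts (log2 ratio 1.05), while the other 14 chromosomes measured there were all lower, by up to -0.87 on chromosome 7. The distance was chosen after its values were seen. As a share of the raw contacts within chromosome 19 the log2 ratio was 1.10, and at 7 to 11 Mb it was 0.70. At 12 to 15 Mb the change on 19 was the opposite, with 224 and 150 millionths (-0.58), and at 15 to 20 Mb it was 172 and 111 (-0.63). At 50 to 100 Mb contact was again higher, with 23.6 and 26.6 millionths (0.17), from 777 and 1401 counts. The log2 ratio at 8 to 10 Mb was 0.65 at 4 d, 0.11 after washout and 0.27 in the knockout, and at 15 to 20 Mb it was -0.48, -0.088 and -0.24. In all 4 comparisons the ratio was thus above 0 at 8 to 10 Mb and below 0 at 15 to 20 Mb. Those of 10 d, 4 d and washout share the untreated library, so they are not independent. At 6 to 8 Mb the log2 ratio was 0.38 at 10 d but -0.13 in the knockout, and at 4 to 6 Mb it was 0.068 and -0.24. Within the arms, contact at 10 to 12 Mb on 19p was 294 and 193 millionths (-0.61). On some other chromosomes the number of valid bin pairs near the centromere differed between the libraries, most on chromosome 7 (555 untreated and 899 at 10 d at 8 to 10 Mb). On 19 it was 3972 and 3935. It was the same in both libraries on chromosomes 4 (4897), 6 (3702) and 18 (1638), which were lower too, with log2 ratios of -0.19, -0.22 and -0.15.

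**Figure D5:**
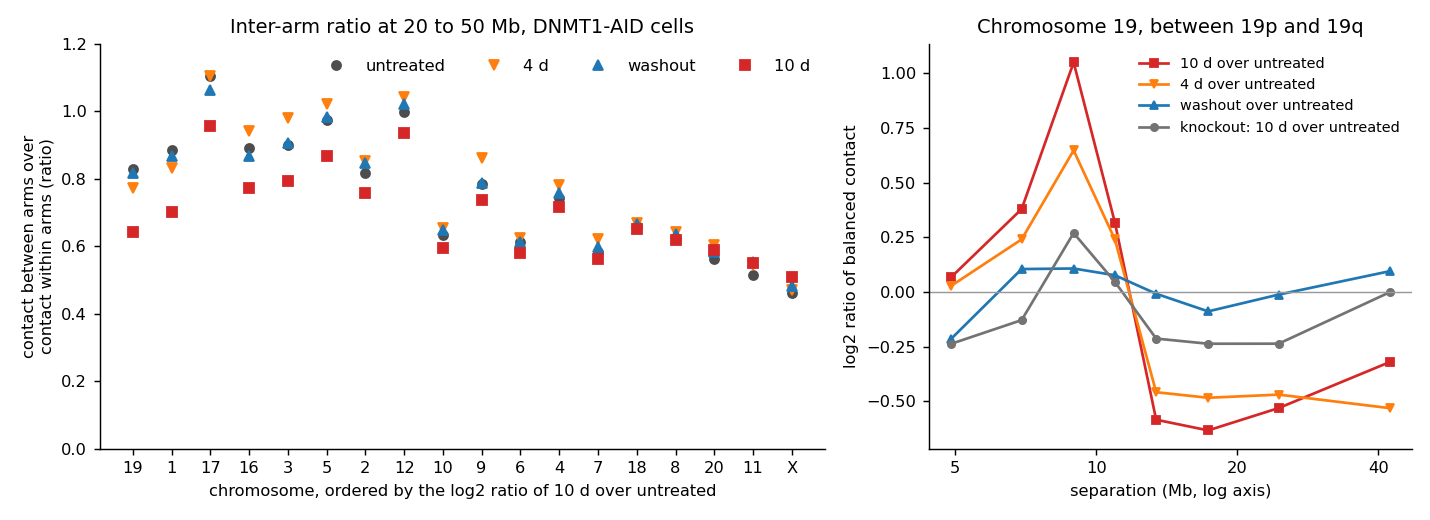
Left, ratio of balanced contact between arms to that within arms at 20 to 50 Mb on 18 chromosomes in the 4 DNMT1-AID libraries, 1 point per library. Right, log2 ratio of contact between 19p and 19q by separation (Mb, log axis). The 10 d line reaches 1.05 at 8 to 10 Mb and lies at -0.63 at 15 to 20 Mb.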

How the data were processed

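The submitters' processing notes name BWA and the build hg38 for the Hi-C read pairs of these 7 libraries. The version and the filtering, balancing and tabulating steps are not given in the sources used. The deposited tables give raw counts, the authors' balanced signal summed over bin pairs and the count of valid bin pairs in 50 kb steps, per the file headers. The raw counts are not normalised. Chromosomes 1 to 22 and X were used, separations under 100 kb (2 bins) were left out, and arms entered with at least 1000 counts in every library. Decay was averaged in 10 bins per decade of separation, arm classes needed 500 counts, and inter-arm ratios needed 10000 bin pairs. Clusters of the untreated library gave the A1 and A2 share. No bins of chromosome 13, X or the first part of chromosome 1 are named there. Genes per Mb came from RefSeq protein-coding genes. Named features were the 3 lowest and highest arms and chromosomes and the 5 lowest and highest pairs of each comparison, the chromosomes 1, 4, 9, 16, 17, 18, 19, 22 and X, and the 5 lists given. Members and lists were chosen with earlier results of these data known. Scripts ran in Python 3.11.15 with NumPy 2.4.6, pandas 2.3.3 and SciPy 1.17.1 and were tested on simulated data. Intervals are exact binomial (Clopper-Pearson) at 95% and cover counting error only.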

Additional observations from a re-analysis of the deposited data

Results flagged for a closer look

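Some values had opposite signs between untreated and 10 d in DNMT1-AID cells and in the DNMT3B knockout. With 1 library per group none of these differences was tested. For chromosome pairs, the median log2 change relative to the median pair was -0.13 in DNMT1-AID and 0.044 in the knockout within the gene-rich chromosomes 16, 17, 19, 20 and 22, and -0.13 and 0.050 within chromosomes 16 to 22. The latter was -0.15 and 0.036 without chromosome 19, and -0.13 and 0.058 without chromosome 22. For pairs of a large with a small chromosome it was 0.023 and -0.00015, which is near 0 in the knockout. Within arms, the share of contacts at 1 to 3 Mb had a median log2 ratio over arms of -0.031 and 0.075, and that at 1 to 10 Mb of -0.00041 and 0.10. Over all arms together the latter was -0.0026 and 0.088. The inter-arm ratio at 20 to 50 Mb had log2 ratios of 0.090 and -0.025 on chromosome 11 and of 0.067 and -0.072 on chromosome 20.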

How the results depend on the processing

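The log2 ratio of the trans share, 0.30 as reported, was 0.29 with balanced sums and 0.21 when contacts within chromosomes were counted from 1 Mb. Within arms, that of contacts at 10 Mb or more (0.052) was 0.048 with a boundary of 5 Mb, 0.083 at 20 Mb and 0.045 with balanced sums. Boundaries of 40 and 60 Mb, added after seeing the data, gave 0.23 and 0.44. That of contacts under 1 Mb (-0.014) was -0.010 at 500 kb, -0.018 at 2 Mb and -0.013 with balanced sums. The decay exponent's difference (0.019) was 0.020 with raw counts, 0.029 over 1 to 10 Mb, 0.0042 over 5 to 50 Mb, 0.018 with 10 bins and, added after seeing the data, 0.50 over 50 to 100 Mb. The inter-arm ratio (-0.095) was -0.11 at matched separation, -0.12 at 10 to 40 Mb, -0.089 with raw counts and -0.083 with at least 50000 bin pairs. With raw counts over trans totals 3 pairs were called lower and 0 higher (25 and 13 as reported, with an SD over pairs of 0.035 against 0.071). That setting largely takes out changes that a chromosome shares over all its pairs. With balanced values and without chromosome 19, 6 were called higher. As a share of raw counts within arms, contact at 0.79 to 1 Mb (-0.13) was -0.040, that at 10 to 12.6 Mb (-0.086) turned to 0.011 and that at 79 to 100 Mb (0.47) was 0.59. Balanced values over their sum within arms gave -0.040, 0.0036 and 0.56, and the median over arms gave 0.45 at 79 to 100 Mb. The cause of these shifts was not tested. No paired analysis was possible because each group held 1 library, and no replicate could be left out. Depth limits the far classes of short arms (82 untreated counts on 19p from 20 Mb on, 797 on 12p from 30 Mb on) more than the pairs, of which the least filled held 14121. Differences between cultures are unknown.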
